A study of Mus musculus with 2 samples.

Results

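The genes described here are 40 members of the mitotic machinery, taken by symbol from a fixed list out of the 27998 genes of a single-cell RNA-seq count matrix of mouse MLL-AF9 acute myeloid leukemia. All 40 symbols matched exactly 1 gene, and all 40 had at least 100 UMIs over both libraries (a UMI, unique molecular identifier, stands for 1 captured transcript). The rule uses no measured value, though the list was drawn up with earlier results of these data known. Lineage-depleted marrow of *Kat2a* Flox/Flox mice, with Mx1-Cre (*Kat2a* KO) or without it (*Kat2a* WT), was taken 4 to 6 weeks after pIpC, which switches on the interferon-inducible Mx1 promoter that drives the recombinase in blood-forming and other cells. It was transduced with a retrovirus for the MLL-AF9 fusion with a YFP reporter and grown in irradiated recipients, whose own cells lack the reporter. Terminal leukemias were thawed and pooled, 5 for WT and 4 for KO, and live YFP-positive cells were sorted for 1 library of 10x Genomics 3′ counts per genotype. Both groups thus shared the floxed alleles, pIpC, the fusion and the transplant, and the leukemias inside a pool carry no label. With 1 library per genotype no difference below has a replicate check, no test between genotypes was possible, and every interval is a 95% interval that covers counting error only.

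Only cells in which 500 or more genes were detected entered, 3866 in the WT-labelled library and 3545 in the KO-labelled library, 7411 of 8309 in all. They held 11669427 and 7920256 UMIs, with medians of 2588.5 and 1884 UMIs per cell. The libraries shared 28 cell barcodes. To compare cells at 1 depth, each kept cell was thinned to 1000 UMIs drawn without replacement, which left out 66 and 194 shallower cells. *Kat2a*, the targeted gene, had 142 UMIs in the WT-labelled library, 12.2 CPM (counts scaled to a library total of 1000000 UMIs), and 759 UMIs in the KO-labelled library, 95.8 CPM. This level is no check of the labels, because the study describes a rearranged *Kat2a* transcript in KO cells that keeps its last exon, and a 3′ count cannot tell that transcript from the intact one. The direction of every difference between the libraries therefore rests on the assignment of barcodes to genotypes described under the processing, and the libraries are called by their labels throughout, with values paired in the order WT-labelled and then KO-labelled where no library is named.

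Mitosis is driven by the kinase CDK1 with its A and B cyclins. The kinases Aurora A and PLK1 build the spindle, the chromosomal passenger complex with Aurora B corrects attachments of chromosomes to it, and the spindle assembly checkpoint holds the anaphase-promoting complex, a ubiquitin ligase, in check until all kinetochores are attached. The ligase then marks securin and the B cyclins for destruction and the chromosomes part. Genes of this machinery are transcribed late in the cell cycle and are held silent in resting cells by the DREAM complex, through a promoter element called CHR (cell cycle genes homology region) and neighbouring CCAAT boxes that bind NF-Y. In the myeloid series, progenitors and promyelocytes divide, and neutrophils and macrophages largely do not.

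Promoter sequence was available for 33 of the 40 members (RefSeq, GRCm38.p6, 250 bases before to 50 bases after the start), and 24 of these (72.7%) held a CHR match, TTTGAA or TTCGAA on either strand. The share was 16.6% over 6055 expressed genes that are no members, 21.7% over all 27025 genes with a window, 16.7% of 18 S phase genes and 74.2% of 31 other mitosis genes. A CCAAT match on either strand stood in 27 members (81.8%), against 43.4% of the expressed genes that are no members. All 24 members with a CHR match also held CCAAT, a combination found in 7.99% of those other genes. In 1 member the CHR and CCAAT matches overlapped. Neither match was found in *Pttg1*, *Tacc3*, *Birc5*, *Mad2l1*, *Knstrn* and *Nusap1*, while *Ccnb1*, *Cks2* and *Cenpe* held CCAAT alone. *Ccna2*, *Tpx2*, *Aurkb*, *Incenp*, *Spc24*, *Kif20a* and *Smc4* had no entry. A match describes letters and not a bound site, and a missing match says only that these letters are absent from this window.

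The stretches below run from 150 bases before to 25 after the annotated start, 5′ to 3′ on the strand of the gene, with CHR and CCAAT matches in capitals (TTCAAA and ATTGG are their reverse complements). The leading 4 are the member of highest CPM with a CHR match in this stretch in each of the opening 4 groups by role: *Ccnb2* (chr9:70421530-70421704, minus strand), *Ube2c* (chr2:164769779-164769953, plus strand), *Hmmr* (chr11:40733413-40733587, minus strand) and *Cdca8* (chr4:124936893-124937067, minus strand). *Mki67* (chr7:135716355-135716529, minus strand) and *Pttg1* (chr11:43425957-43426131, minus strand) were added after their values were seen, because they were the member with the lowest ratio between the libraries and the member least often found with the others.
*Ccnb2*: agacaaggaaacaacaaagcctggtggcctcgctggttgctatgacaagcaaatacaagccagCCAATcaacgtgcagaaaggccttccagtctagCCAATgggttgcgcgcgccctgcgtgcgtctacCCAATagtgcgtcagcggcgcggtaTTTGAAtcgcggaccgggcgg
*Ube2c*: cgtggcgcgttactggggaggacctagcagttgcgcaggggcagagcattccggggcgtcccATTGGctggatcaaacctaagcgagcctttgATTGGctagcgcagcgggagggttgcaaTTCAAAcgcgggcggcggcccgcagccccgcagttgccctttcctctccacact
*Hmmr*: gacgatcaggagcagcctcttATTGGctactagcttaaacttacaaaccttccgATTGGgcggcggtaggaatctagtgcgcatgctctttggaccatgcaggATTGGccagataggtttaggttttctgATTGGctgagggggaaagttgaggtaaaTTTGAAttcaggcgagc
*Cdca8*: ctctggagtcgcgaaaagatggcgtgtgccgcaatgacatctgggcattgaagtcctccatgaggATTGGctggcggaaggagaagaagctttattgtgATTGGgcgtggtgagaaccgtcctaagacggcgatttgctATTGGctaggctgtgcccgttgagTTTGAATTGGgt
*Mki67*: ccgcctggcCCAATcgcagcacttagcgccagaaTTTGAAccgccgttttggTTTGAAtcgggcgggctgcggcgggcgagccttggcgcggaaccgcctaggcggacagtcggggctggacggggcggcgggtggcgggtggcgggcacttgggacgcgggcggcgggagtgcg
*Pttg1*: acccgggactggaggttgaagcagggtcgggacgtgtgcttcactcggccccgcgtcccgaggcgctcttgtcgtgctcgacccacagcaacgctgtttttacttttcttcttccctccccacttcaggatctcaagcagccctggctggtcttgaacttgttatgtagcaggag
In *Ccnb2*, *Hmmr* and *Cdca8* the CHR match began 5, 9 and 14 bases into the transcript, close behind CCAAT matches, and in *Ube2c* it began 29 bases before the start. *Mki67* held 2 CHR matches further upstream and 1 CCAAT, and the stretch of *Pttg1* shows no capitals.

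Summed over the 40 members, the WT-labelled library gave 3970 CPM (3933 to 4006) and the KO-labelled library 4740 CPM (4692 to 4788), with a log2 ratio of KO over WT of 0.26 (0.24 to 0.28). Mitotic transcripts were thus 0.397% and 0.474% of all UMIs. By single gene the ratio was above 0 for 27 members and below 0 for 13, with a median of 0.20 against -0.0018 over the 7861 genes tested. Higher by 1.5-fold or more in the KO-labelled library were 3 members, *Cenpa*, *Bub1b* and *Cdc20*, or 7.5%, where 5.43% of all genes tested were. Lower by 1.5-fold or more were 5 members, *Mki67*, *Cenpf*, *Top2a*, *Cenpe* and *Smc2*, or 12.5%, where 9.9% of all genes tested were. At this limit of size and at own depth, both shares lay near those of all genes. Shares under other settings are given at the end. In GENCODE M21 (GRCm38) *Cenpa* lies at chr5:30666777-30674830, *Bub1b* at chr2:118598211-118641591 and *Cdc20* at chr4:118432901-118437352. *Mki67* lies at chr7:135689784-135716361, *Cenpf* at chr1:189640606-189688086, *Top2a* at chr11:98992943-99024189, *Cenpe* at chr3:135212537-135273611 and *Smc2* at chr4:52439243-52488260.

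**Figure D1:**
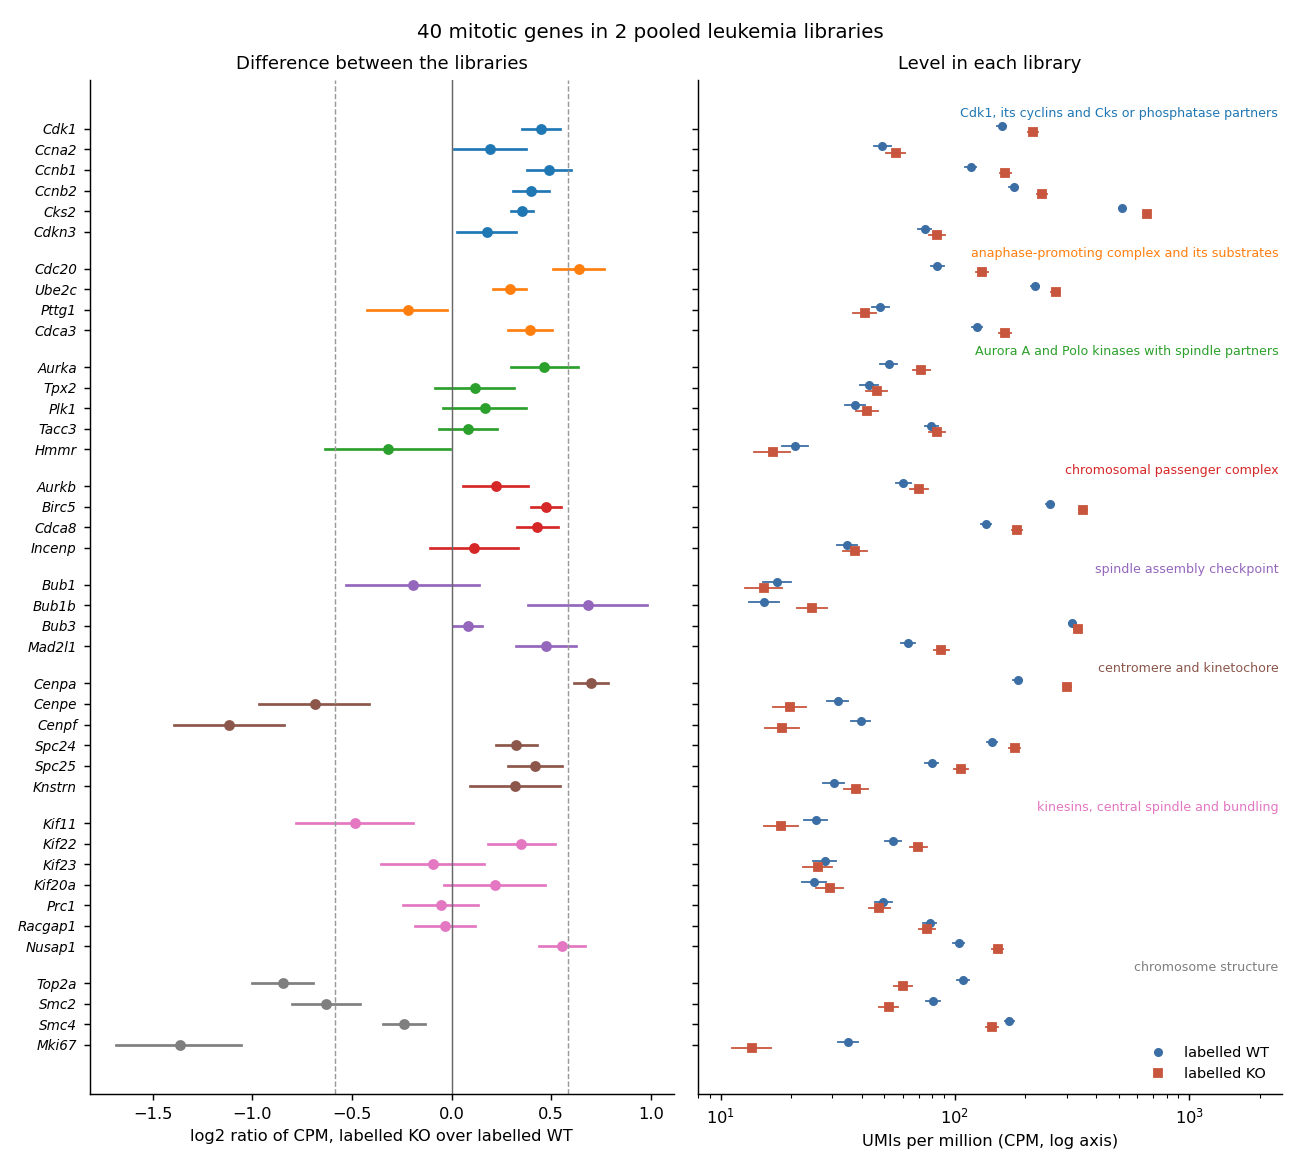
Left, the log2 ratio of CPM (KO-labelled library over WT-labelled library) of each of the 40 members with its 95% counting interval, grouped and coloured by role, with dashed lines at 1.5-fold; right, the CPM of each member in each library on a log axis with its counting interval. Members of chromosome structure, with *Cenpe* and *Cenpf*, lie to the left of 0, and members of the cyclin and passenger complex groups lie to the right.

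CDK1, its cyclins and their partners were higher in the KO-labelled library for 6 of 6 members, 1092 against 1413 CPM summed (log2 ratio 0.37, 0.34 to 0.41), though none reached 1.5-fold. *Cdk1* itself had 158 CPM (151 to 166) in the WT-labelled library and 216 CPM (206 to 226) in the KO-labelled library, a log2 ratio of 0.45. *Ccna2*, the cyclin that serves S phase and the entry into mitosis, had 48.9 CPM and 55.9 CPM, a log2 ratio of 0.19. The mitotic cyclins *Ccnb1* (117 and 164 CPM) and *Ccnb2* (178 and 235 CPM) gave log2 ratios of 0.49 and 0.40. The highest CPM of all members was that of *Cks2*, which encodes a small CDK-binding subunit, at 516 CPM (503 to 529) and 658 CPM (641 to 677). *Cdkn3*, a phosphatase that acts on CDKs, had 74.2 and 83.8 CPM. All of these differences are in 1 direction, and that of *Cdkn3*, like that of *Ccna2*, was smaller than those of *Cdk1* and the B cyclins.

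Of the anaphase-promoting complex and its substrates, 3 of 4 were higher in the KO-labelled library. *Cdc20*, the activator that the spindle checkpoint restrains, had 84.1 CPM (78.9 to 89.5) in the WT-labelled library and 131 CPM (123 to 139) in the KO-labelled library, a log2 ratio of 0.64 (0.51 to 0.77). *Ube2c*, the ubiquitin-conjugating enzyme of the complex, had 220 and 269 CPM, and *Cdca3*, a trigger of mitotic entry, 125 and 164 CPM. *Pttg1*, which encodes securin, was the exception at 48.0 CPM (44.1 to 52.1) and 41.2 CPM (36.8 to 45.9), with a log2 ratio of -0.22 (-0.42 to -0.02). *Ube2c* and *Cdc20* work at the same step, but the ratio of *Cdc20* was the larger, 0.64 against 0.29 (0.21 to 0.37).

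The Aurora A and Polo group summed to 233 and 261 CPM, a log2 ratio of 0.17. *Aurka*, the spindle pole kinase, had 52.1 CPM (48.0 to 56.4) and 72.0 CPM (66.2 to 78.1), with a log2 ratio of 0.47. Its activator *Tpx2* had 42.8 and 46.5 CPM, and *Plk1* had 37.4 and 42.0 CPM. For both, as for the spindle protein *Tacc3* (79.4 and 84.0 CPM), the counting interval of the ratio included 0. *Hmmr*, which encodes a spindle-binding hyaluronan receptor, pointed the other way at 20.8 and 16.7 CPM.

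The chromosomal passenger complex was higher in the KO-labelled library for 4 of 4 members, 486 against 645 CPM summed (log2 ratio 0.41, 0.35 to 0.46). *Birc5*, or survivin, had 255 CPM (246 to 264) and 353 CPM (340 to 367), and *Cdca8*, or borealin, 136 CPM (130 to 143) and 184 CPM (175 to 193). The kinase *Aurkb* had 60.3 and 70.3 CPM and its scaffold *Incenp* 34.7 and 37.5 CPM, so the 2 targeting subunits differed more than the kinase and scaffold they act with, at log2 ratios of 0.47 and 0.43 against 0.22 and 0.11.

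In the spindle assembly checkpoint group *Mad2l1*, which forms the inhibitory complex on CDC20, had 63.1 CPM (58.6 to 67.8) and 87.6 CPM (81.2 to 94.4), with a log2 ratio of 0.47. *Bub1b*, the BUBR1 kinase of the same complex, had the lowest CPM of the members in the WT-labelled library, 15.3 CPM from 179 UMIs, against 24.6 CPM from 195 UMIs, a log2 ratio of 0.68 (0.38 to 0.98). *Bub3* had 317 and 335 CPM, close to level, and *Bub1* had 17.5 and 15.3 CPM with an interval of the ratio from -0.53 to 0.14. The highest ratio of all 40 belonged to *Cenpa*, the histone H3 variant of centromeres, with 185 CPM (178 to 193) and 301 CPM (289 to 313) and a log2 ratio of 0.70 (0.62 to 0.79).

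Among the other centromere and kinetochore genes, the *Ndc80* complex subunits *Spc24* (144 and 180 CPM) and *Spc25* (79.6 and 107 CPM) and the spindle-kinetochore gene *Knstrn* (30.3 and 37.9 CPM) were also higher in the KO-labelled library. The large kinetochore proteins were lower. *Cenpe*, a kinesin that moves chromosomes to the spindle equator, had 31.7 CPM (28.6 to 35.1) and 19.7 CPM (16.7 to 23.0), with a log2 ratio of -0.69 (-0.97 to -0.41). *Cenpf* had 39.7 CPM (36.1 to 43.5) and 18.3 CPM (15.4 to 21.5), with a log2 ratio of -1.12 (-1.40 to -0.84). Within 1 structure the members thus spanned 0.70 to -1.12.

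The kinesin and central spindle genes were mixed, 3 above and 4 below 0. *Nusap1*, a microtubule-bundling protein, had 104 CPM (97.9 to 110) and 152 CPM (144 to 161), with a log2 ratio of 0.55. *Kif11*, the kinesin that pushes spindle poles apart, had 25.4 CPM (22.6 to 28.5) and 18.2 CPM (15.3 to 21.4), with a log2 ratio of -0.49 (-0.78 to -0.19). *Kif22* (54.7 and 69.7 CPM) lay between them on the higher side. *Kif23*, *Kif20a*, *Prc1* and *Racgap1*, which together build the midzone where the cell divides, had log2 ratios from -0.09 to 0.22, each with an interval that included 0.

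Chromosome structure was the only one of the 8 groups by role with a lower sum in the KO-labelled library, 395 CPM (384 to 406) against 271 CPM (259 to 282), and all 4 of its members were lower. *Mki67*, the Ki-67 protein that coats mitotic chromosomes and a common marker of dividing cells, had 35.1 CPM (31.8 to 38.7) from 410 UMIs and 13.6 CPM (11.2 to 16.5) from 108 UMIs, a log2 ratio of -1.37 (-1.69 to -1.06), the lowest of the 40. *Top2a*, the topoisomerase that untangles sister chromatids, had 108 CPM (102 to 114) and 60.2 CPM (54.9 to 65.9), with a log2 ratio of -0.85. The condensin subunits *Smc2* (80.6 and 52.1 CPM) and *Smc4* (171 and 145 CPM) gave -0.63 and -0.24. *Mki67* and *Top2a*, both widely read as signs of division, thus differed between the libraries in the opposite direction to *Cdc20*, *Cenpa* and the B cyclins.

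The members with the lowest ratios had long transcripts. This was looked at after the values were seen, with the longest annotated transcript of each gene (GENCODE M21) as its length. The 11 members of 4000 bases or more had a median log2 ratio of -0.49, and 7 of them lay below 0, while the 29 shorter members had a median of 0.29 and 6 below 0. Across the 40 members Spearman's rho between length and ratio was -0.52, and across 7642 other genes tested it was -0.26, both across genes of the same 2 libraries. The 4 longest members were *Cenpf* (11130 bases), *Mki67* (10061 bases), *Cenpe* (7910 bases) and *Mad2l1* (7557 bases), and only *Mad2l1* of these was above 0. Over all genes tested the median log2 ratio went from 0.12 at 1000 to under 2000 bases through -0.05 at 3000 to under 4000 bases to -0.30 at 6000 bases or more, against 0.40, 0.08 and -0.90 for members of the same lengths. Length moved with the ratio beyond the members as well. Its part in the differences was not tested. Without the 11 long members the summed log2 ratio was 0.34 (0.32 to 0.36).

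**Figure D2:**
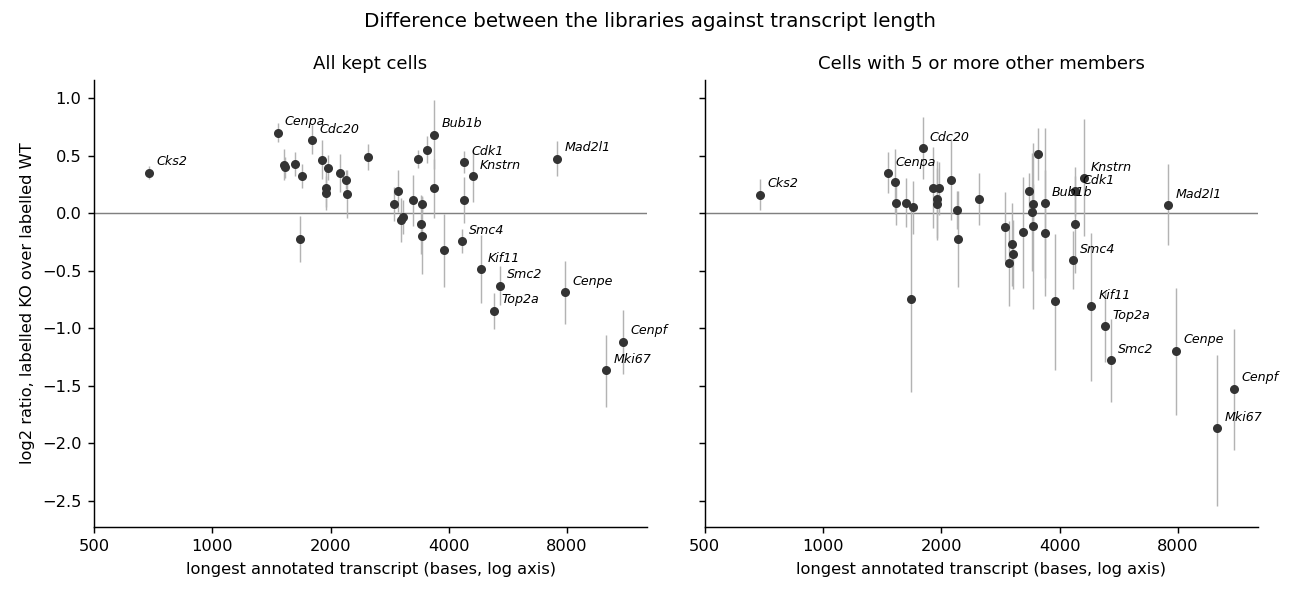
The log2 ratio (KO-labelled library over WT-labelled library) of each member against the length of its longest annotated transcript in bases on a log axis, with 95% counting intervals, on the left over all kept cells at own depth and on the right over thinned cells with 5 or more other members detected. Short transcripts such as those of *Cenpa* and *Cdc20* lie above 0, and long ones such as those of *Cenpf* and *Mki67* lie below it on both sides. Of the members of 4000 bases or more, *Mad2l1*, *Cdk1* and *Knstrn* lie above 0 on both sides and *Tpx2* on the left only.

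Mitotic transcripts were concentrated in few cells. In 1000 UMIs, 34.2% of the 3800 thinned cells of the WT-labelled library and 27.6% of the 3351 of the KO-labelled library held no member, and 37.9% and 36.8% held 1 or 2. Cells with 5 or more members made up 20.2% (18.9 to 21.5%, 767 cells) and 25.4% (23.9 to 26.9%, 851 cells), a difference of 5.21 percentage points (3.26 to 7.16) at equal depth. The highest number in any cell was 22 and 19. Cells with 10 or more members were 8.0% and 9.04%, so most of the difference lay at 5 to 9 members, 12.2% against 16.4%.

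The group of 5 or more is a range of a count and not a cell type. It was meant to mark cells in or near mitosis, but it also took in cells with S phase transcripts. Cells with 5 to 9 members carried 3.44 and 4.00 UMIs of S phase genes per 1000, against 1.02 and 1.56 in cells with no member. Beside the limit, with 4 or 5 members, lay 5.50% and 7.40% of cells. Cells with 5 or more members carried 73.4% and 74.6% of all member UMIs, at 12.0 and 12.2 member UMIs per 1000, a level that the choice of these cells largely sets. At own depth such cells were the larger ones, with median totals of 3590 and 2471 UMIs against 2133 and 1604 for cells with no member. Without thinning the shares were 31.9% and 34.7%, a difference of 2.81 points (0.66 to 4.96), and with thinning to 1500 UMIs they were 26.7% and 38.9%, a difference of 12.2 points. The direction was the same each time, but the size depends on which depth is set and which shallow cells are left out.

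**Figure D3:**
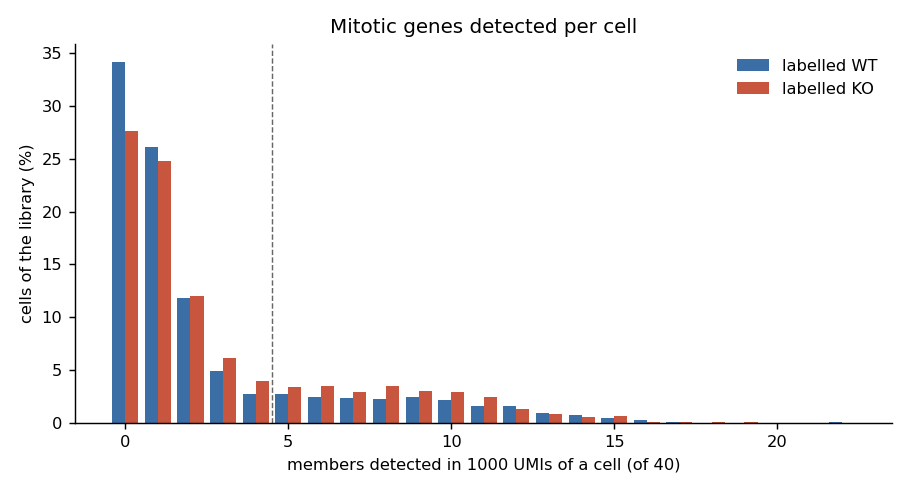
The share of thinned cells of each library (%) by the number of the 40 members detected in 1000 UMIs, with the limit of 5 as a dashed line. The KO-labelled library has fewer cells at 0 and more at 3 to 9, and both have a long tail beyond 10.

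The background of this measure was read in 2 classes of cells, set by list content and taken as largely not dividing, and they gave different values. In cells with 6 or more UMIs of the macrophage list, 2.17% of 277 cells (0.80 to 4.65%) of the WT-labelled library and 1.41% of 142 cells (0.17 to 5.00%) of the KO-labelled library had 5 or more members, with median depths of 1506 and 1341 UMIs before thinning. In the 5% of cells richest in the mature granulocyte list the shares were 10 of 191 cells (5.24%, 2.54 to 9.42%) and 31 of 172 cells (18%, 12.6 to 24.6%), with median depths of 1912 and 1785.5 UMIs, so this class was no low background in the KO-labelled library. The class began at 166 list UMIs in the WT-labelled library and at 109 in the KO-labelled library, so its content differed. Most UMIs of this list came from *S100a8* (18878 and 18009 CPM) and *S100a9* (14445 and 10345 CPM), so these genes largely set the class. Single members were seen in 0 to 16.2% of the macrophage-list cells in the WT-labelled library, with a median of 1.08%, against 1.08 to 29.8% of all thinned cells with a median of 4.68%. The highest background was that of *Bub3* (16.2% and 12.0%), *Cks2* (9.39% and 10.6%), *Smc4* (9.39% and 2.82%) and *Pttg1* (4.69% and 4.93%). *Pttg1* was found in 4.39% and 3.16% of all thinned cells, no more than in the macrophage-list cells, and in 2.09% and 2.33% of the mature granulocyte cells, so its share is not read as expression above background here, since that depends on which class is taken. The C1q genes and *Mrc1* of that list were at or near 0, and its UMIs came mainly from *Apoe*, *Ccl6* and *Cd68*.

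Members were found together. Over the 780 pairs, cells that held both numbered a median of 3.24 times the product of the single shares in the WT-labelled library, with 759 pairs above 1, and 2.55 times in the KO-labelled library, with 747 pairs above 1. The most this ratio can reach is lower where the cells that hold the members are a larger share, so the medians of the libraries were not compared further. Members with other mitosis genes gave 3.17 and 2.31, and members with S phase genes only 1.2 and 1.09. With primary granule genes the median was 1.06 and 1.02, with secondary granule genes 0.99 and 1.05, and with monocyte genes 0.56 and 0.59, so members and monocyte genes were in the same cell less often than their shares alone would give.

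The pair most often together, among pairs with at least 10 expected cells in both libraries, was *Ccnb1* and *Ube2c*, in 150 cells against 26.7 expected in the WT-labelled library and in 147 against 36.5 in the KO-labelled library. *Ube2c* with *Prc1* (66 against 13.5, and 60 against 15.5) and *Ccnb1* with *Cdc20* (68 against 13.9, and 94 against 24.7) followed. All are genes of the steps around anaphase. At the other end stood *Pttg1*: it was with *Cdk1* in 16 cells against 16.0 expected and in 15 against 15.2, and with *Smc4* in 24 against 22.6 and in 6 against 11.5. Of cells holding *Pttg1*, 19.8% and 22.6% had 5 or more other members, against 86.3% and 86.6% of cells holding *Ube2c*. *Cks2* (39.1% and 41.7%), *Bub3* (39.2% and 49.2%) and *Smc4* (40.2% and 51.8%) lay between. These are the members also seen most widely outside the group, *Cks2* in 18.1% and 24.6% and *Bub3* in 15.7% and 14.3% of cells with no other member, where the median over members was 0.61% and 0.75%.

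**Figure D4:**
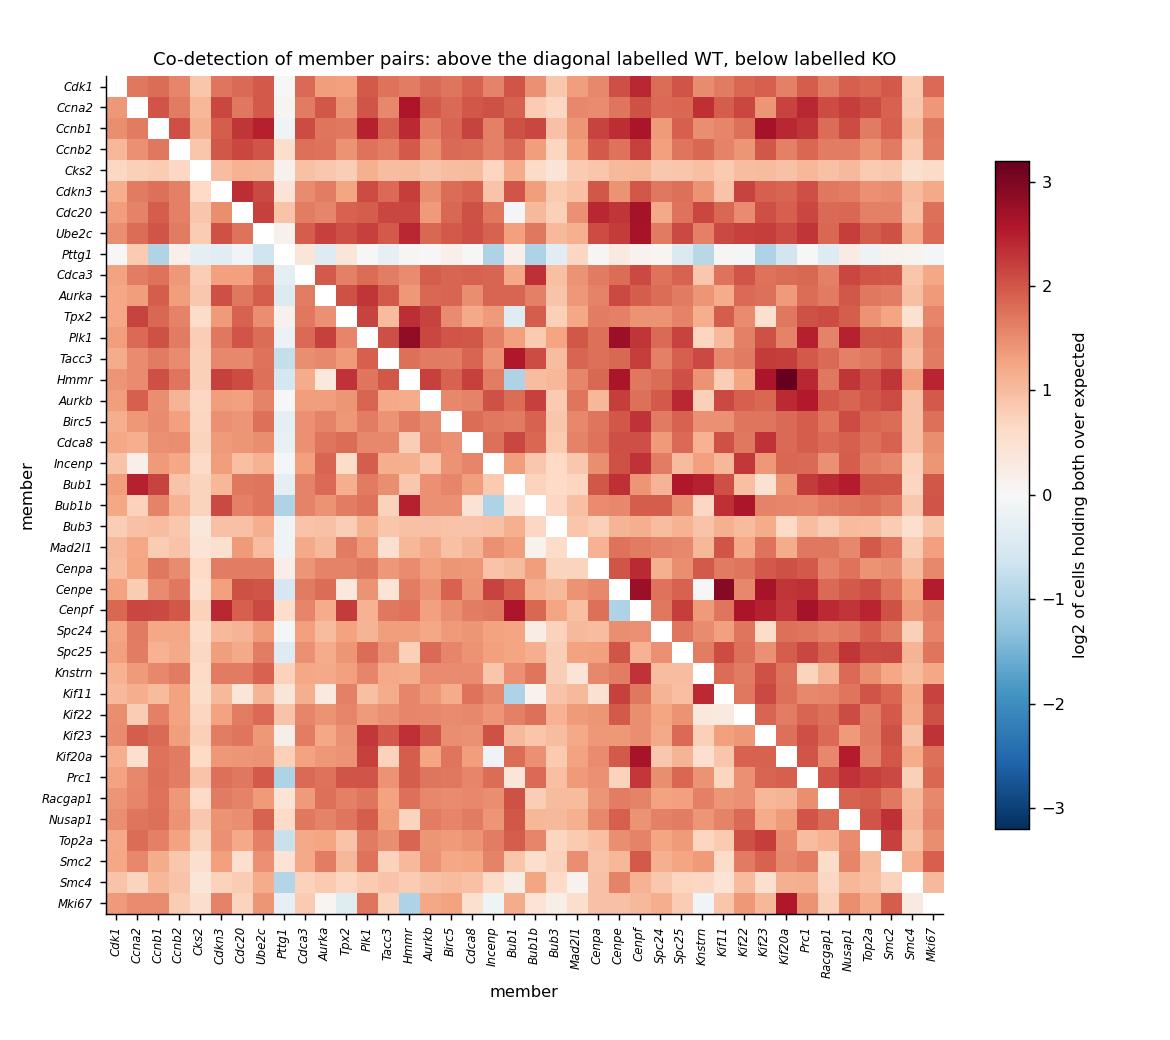
Each square gives, for a pair of members, the log2 of cells holding both over the number expected from their single shares, above the diagonal in the WT-labelled library and below it in the KO-labelled library; values under -1 are drawn at -1, and pairs of rare genes rest on few cells. Most squares are red (more often together), those of *Cks2*, *Bub3* and *Smc4* are pale, and the row and column of *Pttg1* are near white or blue.

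Within the cells rich in members, single members differed between the libraries in another way than over all cells. For each member, the cells with 5 or more of the other 39 members were taken, so that the gene itself had no part in choosing them. The other 39 did choose them, alike in both libraries. This choice draws the median ratio towards 0 and can shift the ratio of single members, so a level close in both libraries partly follows from it. The median log2 ratio over members was 0.04 there, 22 above and 18 below 0, against 0.20 over all kept cells. These cells were thinned, whereas the 0.20 is from counts at own depth. Summed over members, the log2 ratio was 0.33 (0.29 to 0.36) over all thinned cells. *Ube2c* was held by 42.5% and 41.4% of these cells (log2 ratio of UMIs 0.03, -0.14 to 0.19), *Ccnb2* by 38.5% and 39.2%, and *Cdca8* by 34.9% and 35.1%. For these members the level in such cells was close in both libraries.

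In these cells the counting interval lay below 0 for 10 members and above 0 for 5. No such count was made over all genes, so these numbers are not read as particular to the members. *Mki67* was held by 10.4% of such cells in the WT-labelled library and 2.72% in the KO-labelled library, a log2 ratio of -1.87 (-2.55 to -1.23). *Cenpf* was held by 12.5% and 4.35% (-1.52, -2.06 to -1.01), *Smc2* by 21.7% and 10.2% (-1.27), *Cenpe* by 9.74% and 4.94% (-1.19) and *Top2a* by 25.4% and 13.2% (-0.98). Each of these was further from 0 than over all cells. The other 5 on the lower side were *Kif11* (-0.81), *Hmmr* (-0.76), *Ccna2* (-0.43, -0.81 to -0.06), *Smc4* (-0.41) and *Racgap1* (-0.36). Of these, *Ccna2* had been at 0.19 over all kept cells at own depth, but at -0.06 (-0.40 to 0.27) over all thinned cells. On the higher side *Cdc20* was held by 20.1% and 24.6% (0.56, 0.29 to 0.83), *Nusap1* by 27.5% and 35.5% (0.52, 0.29 to 0.74) and *Cenpa* by 37.7% and 46.0% (0.35, 0.17 to 0.53), with *Birc5* (0.20) and *Cks2* (0.16) nearer 0. *Bub1b*, past 1.5-fold over all kept cells at own depth and at 0.36 (-0.16 to 0.89) over all thinned cells, gave 0.09 (-0.56 to 0.74) here. By length, the 11 members of 4000 bases or more had a median of -0.81 in these cells and the 29 shorter ones 0.08.

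The members could be ordered by how much of the S phase list, 24 genes of DNA replication, was seen in the cells that held them. The S phase list averaged highest at 3 to 4 members detected, 3.97 UMIs per 1000 in the WT-labelled library and 4.53 in the KO-labelled library, and was 2.27 and 2.36 at 10 or more, against 1.02 and 1.56 at 0. Cells holding *Top2a* carried 3.98 and 4.22 S phase UMIs per 1000, those holding *Aurkb* 3.87 and 3.81, *Spc25* 3.72 and 4.01, and *Mad2l1* 3.68 and 4.29. Lowest were the cells holding *Cenpf* (1.76 and 1.81), *Cdc20* (1.77 and 2.38) and *Cenpa* (1.84 and 2.39). *Cdk1* (3.53 and 3.95) and *Ccna2* (3.2 and 3.6) lay with the former and *Ccnb1* (1.86 and 2.71) and *Ccnb2* (2.06 and 2.52) with the latter. The averages over all thinned cells were 1.96 and 2.67. As background, *Ccna2* and *Top2a* are known to accumulate from S phase on, and *Ccnb1*, *Cdc20* and *Cenpf* to peak shortly before or in mitosis.

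Summed S phase genes were 2435 CPM in the WT-labelled library and 3052 CPM in the KO-labelled library, a log2 ratio of 0.33. Of the 24 genes, 22 were above 0, where 3916 of all 7861 genes tested were. Higher by 1.5-fold was 1, *Chaf1b*, or 4.17%, near the 5.43% of all genes tested. Within the list, *Rrm2*, a subunit of the enzyme that makes deoxynucleotides, differed most between cells with 5 or more members and cells with none, by log2 ratios of 3.76 and 3.56. *Tyms* gave 3.09 and 1.82, and *Pcna* 1.24 and 0.61. *Rfc2*, a subunit of the clamp loader, gave 0.08 and -0.08. Not all of the list was higher in member-rich cells. *Hells* (-0.37 and -0.38) and *Ung* (-0.46 and -2.10) were below 0 in both libraries, *Ung* on 14 and 3 UMIs in the KO-labelled library. *Mcm2*, *Mcm5* and *Mcm6* were above 0 in the WT-labelled library and below 0 in the KO-labelled library, there with intervals that included 0.

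Of the 40 other mitosis genes, 33 had 100 UMIs, 5 of them higher (15.2%) and 6 lower (18.2%) by 1.5-fold, and their sum was 586 and 635 CPM (log2 ratio 0.12). The 6 lower genes were *Aspm*, *Ckap5*, *Kif15*, *Ncapg*, *Kif20b* and *Kif4*. *Aspm*, a spindle pole protein, had 8.06 and 2.78 CPM, *Ckap5*, a microtubule polymerase, 21.3 and 9.47 CPM, and the condensin subunit *Ncapg* 24.2 and 13 CPM. The condensin subunits *Ncapd2* (0.15) and *Ncaph* (0.12) and the kinetochore genes *Nuf2* (0.37) and *Ndc80* (0.19) had log2 ratios on the other side of 0. Of these, only *Nuf2* had an interval that excluded 0 (0.16 to 0.59). *Sgol1*, the protector of centromeric cohesion, was highest by ratio at 16.7 and 29.8 CPM. Of 20 regulators of mitotic transcription, 16 had 100 UMIs, 3 higher by 1.5-fold (18.8%) and 0 lower, where 5.43% and 9.9% of all genes tested were. *Foxm1* (4.63 and 4.17 CPM) and *Mybl2* (14.2 and 13.8 CPM), which activate late cell cycle genes, were about level, whereas the DREAM subunits *Rbl1* (20.1 and 38.3 CPM), *Lin9* (9.51 and 15.5 CPM) and *Lin52* (5.83 and 9.85 CPM) were higher in the KO-labelled library. Of their partners in that complex, *Lin37* (40.9 and 54.5 CPM) and *Lin54* (11.4 and 13.9 CPM) stayed under 1.5-fold, and *Rbl2* (7.11 and 5.93 CPM) and *E2f4* (37.4 and 38.1 CPM) had intervals of the ratio that included 0. *Nfya*, a subunit of the factor that binds CCAAT, had 10.0 and 6.82 CPM, and its partners *Nfyb* and *Nfyc* were level.

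Monocyte genes were fewer in cells rich in members, though not absent: 22.9% and 19.7% of cells with 5 or more members held a monocyte-list UMI, against 44.8% and 42.3% of cells with none. In cells with 5 or more members the monocyte list stood at 0.53 UMIs per 1000 in the WT-labelled library and 0.48 in the KO-labelled library, against 1.5 and 1.58 in cells with none, log2 ratios of -1.51 (-1.66 to -1.35) and -1.72 (-1.89 to -1.56). *Ctss*, a lysosomal protease of monocytes, gave -2.60 and -2.40, and *Ms4a6c* gave -1.78 and -1.69. *Irf8* of the same list gave -0.20 (-0.53 to 0.12) in the WT-labelled library, where its interval included 0, and -1.04 (-1.58 to -0.52) in the KO-labelled library. The macrophage list went from 2.07 and 1.68 to 0.26 and 0.23. Seen from the other side, 25.5% and 31.1% of cells with no monocyte-list UMI had 5 or more members, 14.8% and 17.9% with 1 or 2, and 5.77% (3.02 to 9.86%) and 8.15% (4.63 to 13.1%) with 6 or more. The share was lower at each step in both libraries.

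The primary granule list, of genes active around the promyelocyte stage, was higher in cells with 5 or more members than in cells with none, 11.7 against 7.96 UMIs per 1000 in the WT-labelled library and 11.9 against 10.2 in the KO-labelled library, and peaked at 3 to 4 members (16.3 and 14.2). *Elane*, or neutrophil elastase, gave log2 ratios of 0.75 and 0.36 and *Ms4a3*, a granulocyte-monocyte progenitor gene, 0.99 and 0.77. *Mpo*, or myeloperoxidase (0.59 and 0.12), and *Ctsg*, or cathepsin G (0.47 and 0.16), were nearer 0 in the KO-labelled library. The other two of the 6 genes did not share this: *Prtn3*, or proteinase 3, gave 0.05 and -0.31, and *Cst7* gave -0.35 and -2.88, the latter on 32 and 4 UMIs. The secondary and tertiary granule list gave 0.11 and 0.47 as a whole, but its genes were split. *Ngp*, the gene of the list with most UMIs, gave -0.07 and 0.29. *Camp*, the cathelicidin gene, was higher in cells with 5 or more members by 0.55 and 0.76 on the log2 scale, and *Chil3* by 0.27 and 0.72. Genes of later neutrophils were lower in the same cells: *Ltf*, or lactoferrin, at -1.83 and -1.11, *Mmp8* at -3.49 and -2.79, and *Mmp9* at -2.46 and -1.52. *Cybb* (-1.24 and -0.71) and *Lcn2* (-0.89 and -0.20) were lower too, and *Itgb2l* was about level (0.05 and -0.08).

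By secondary granule content, cells with 5 or more members made up 12.7% and 11.9% of cells with 0 to 4 UMIs of that list, and 24.6% (22.7 to 26.6%) and 36.9% (34.4 to 39.4%) of cells with 50 or more. The share in the KO-labelled library minus that in the WT-labelled library was -0.83 percentage points (-4.11 to 2.33) at low content and 12.3 points (9.21 to 15.4) at high content. The mature granulocyte list gave a hump, 14.4% and 13.2% at 0 to 9 UMIs, 36.0% and 41.9% at 30 to 59, and 19.7% (17.6 to 22.0%) and 32.7% (29.6 to 35.9%) at 60 or more. In the 5% of cells richest in that list the shares were the 5.24% and 18% given above. The libraries differed in this list itself: *S100a8*, a calprotectin subunit, was lower in cells with 5 or more members than in cells with none in the WT-labelled library (22.2 against 28.5 UMIs per 1000) and higher in the KO-labelled library (27.6 against 18). *Retnlg*, a gene of mature neutrophils, went from 0.18 to 0.01 in the former and from 0.09 to 0.05 in the latter. The list as a whole was 38056 and 31139 CPM. In cells with none of the members it stood at 57.8 and 32.7 UMIs per 1000, in cells with 3 to 4 at 28.5 and 33.7, and in cells with 5 or more at 43.2 and 44.4.

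**Figure D5:**
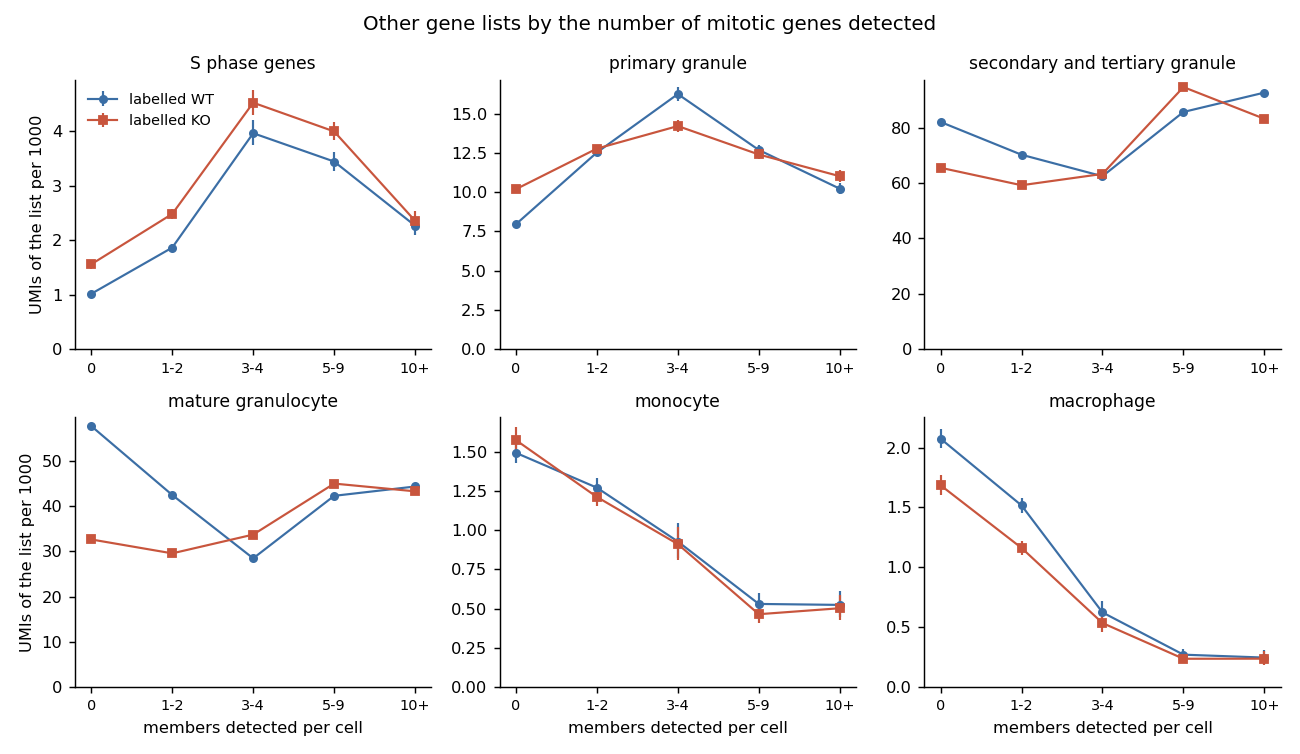
UMIs of 6 other gene lists per 1000 UMIs, with 95% counting intervals, by the number of members detected per thinned cell, for each library. The S phase and primary granule lists peak at 3 to 4 members, the monocyte and macrophage lists are highest at 0 members, and the mature granulocyte list starts at 57.8 in the WT-labelled library and 32.7 in the KO-labelled library.

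Markers of other cells differed between the libraries. The erythroid list, led by the globin genes, was 208 and 538 CPM, with 4 of its 6 genes at 100 UMIs, all 4 of them higher by 1.5-fold in the KO-labelled library, and *Klf1* at 0.771 and 1.39 CPM. Of kept cells 57 and 155 held an erythroid UMI, and without them the share of cells with 5 or more members was 20.2% and 25.3%. The lymphoid list was 251 and 395 CPM, almost all from *Nkg7* and *Cd79b*, with *Cd3e* at 0.26 and 0.25 CPM, and its part in the results was not tested. The self-renewal list of 6 genes stood at 0.37 and 0.34 UMIs per 1000 in cells with 5 or more members and at 0.36 and 0.38 in cells with none. Its genes were split, with log2 ratios between these cells of 0.41 and 0.52 for *Hoxa9*, -0.97 and -1.03 for *Cd34*, -0.36 and -0.27 for *Hoxa10*, and -0.06 and -1.43 for *Myc*. *Hoxa10*, *Meis1* and *Kit* had intervals that included 0 in both libraries, and *Myc* had one in the WT-labelled library.

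Outside the fixed lists, the genes whose counts followed the number of members most closely over thinned cells were *H2afz*, a replication-independent histone variant (Spearman's rho 0.56 in the WT-labelled library and 0.57 in the KO-labelled library), *Hmgb2*, a chromatin protein (0.53 and 0.57), *Ptma*, or prothymosin alpha (0.53 and 0.49), and *Stmn1*, or stathmin, which loosens microtubules (0.52 and 0.50). *Hmgb1*, *Tubb5*, *Hist1h2ap*, *Hmgn2*, *Tuba1b* and *2810417H13Rik* made up the 10 highest, with means from 0.48 to 0.41. *H2afz* stood at 6.5 and 6.02 UMIs per 1000 in cells with 5 or more members and 1.43 and 1.48 in cells with none, and *Stmn1* at 2.30 and 2.76 against 0.28 and 0.48. The lowest 5 were *Ftl1*, the ferritin light chain (-0.40 and -0.47), *Lyz2*, or lysozyme (-0.39 and -0.28), *Lgals3*, *Tyrobp* and *Junb*. Over the 2403 genes detected in 5% or more of the thinned cells in each library the median rho was 0.01 and -0.004. Cells share their library and the 1000 UMIs are a fixed sum, so these are descriptions, and *Hist1h2ap*, *Hmgn2* and *Ptma* have near-identical copies among which reads could be split.

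Cell-to-cell spread of the members was measured as the CV (coefficient of variation, the standard deviation divided by the mean) in thinned cells. The median CV over members was 4.91 in the WT-labelled library and 4.74 in the KO-labelled library, with a median log2 ratio of -0.08, and 14 of 40 members had the higher CV in the KO-labelled library. Over 7860 genes tested the median log2 ratio was 0.05. On counts at own depth scaled to 10000 per cell the values were 0.10 for members and 0.24 for all genes, so the sign for members depends on depth while members lay below all genes both times. The highest CV ratios were those of *Mki67* (0.77) and *Cenpf* (0.61), the members lowest by CPM ratio, and *Cenpa*, highest by CPM ratio, had -0.35. *Racgap1*, about level in CPM, had the lowest at -0.40. CV was not compared at equal mean, so the part of level in these values was not tested.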

How the data were processed

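The series is 1 matrix of UMI counts from 2 single-cell libraries of mouse *MLL-AF9* leukemia, *Kat2a* WT and KO. The authors aligned and counted reads with Cell Ranger (version 1.3.1 and the mouse build mm10, per the submitters' processing notes) and deposited whole-number counts per gene and cell, not normalized. The barcode's final digit separates the libraries. Cells ending in 1 were taken as KO, because the code published with the study treats them as Cre-positive and the labels call Cre-positive mice KO, and the kept cells then lie near the cell numbers the study gives for each genotype, which they do not when exchanged.

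Here cells with 500 or more genes were kept, which removed 203 and 695 cells, and doublets were not called. A gene was tested with 100 or more UMIs over both libraries, and 1.5-fold was the limit of size. Sums carry exact Poisson intervals, ratios of sums exact conditional binomial intervals, shares exact Clopper-Pearson intervals and differences of shares Newcombe intervals, all at 95%. UMIs in droplet data also hold free RNA, which these intervals do not cover. The members and lists, and the limits of 5 members and 1000 UMIs, were chosen with earlier results of these data known. All 40 members are named by role, with list genes and the 10 highest and 5 lowest genes by rank correlation with the number of members. Transcript lengths and the list-content bins were chosen after seeing the values. Python 3.11.15, NumPy 2.4.6, SciPy 1.17.1, pandas 2.3.3 and, for TMM factors only, edgeR 4.0.16 were used. The intervals, thinning and pair counts were tested on simulated data. Alternatives covered cells kept, depth, scaling and limits.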

Additional observations from a re-analysis of the deposited data

Results flagged for a closer look

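Cells under 500 genes, which no comparison used, also held mitotic transcripts. The 203 such cells of the WT-labelled library gave 659 CPM of members (557 to 774, 147 UMIs) and the 695 of the KO-labelled library gave 1096 CPM (1018 to 1179, 729 UMIs), a log2 ratio of 0.73 (0.48 to 1.0). Both levels were far below those of the kept cells. There is no control library for these cells, and the signal is given because it lies above what a count of 0 allows in data that no comparison used.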

How the results depend on the processing

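Of 88 alternative values, 56 stayed within the counting interval of the value reported or, for counts and medians, within 1.5 times of it, 30 moved further and 2 changed sign; the cause was not tested for any. The summed members gave log2 ratios of 0.19 over every deposited cell, 0.32 in cells with 1000 or more genes, 0.30 without the 5% of cells with most UMIs in each library, 0.33 with each cell thinned to 1000 UMIs and 0.34 without members of 4000 bases or more, and kept their direction under all 8 alternatives run; TMM and median-ratio scaling gave 0.25 and 0.26. The members higher by 1.5-fold numbered 5 without the 5% of cells with most UMIs, where 5.81% of all genes tested were. After thinning 6 of the 39 members tested were higher and 3 lower, where 7.65% and 8.72% of all genes tested were. In cells with 1000 or more genes 4 were higher and 3 lower, where 5.85% and 9.48% of all genes tested were. At the lower limit of size that was tried, 16 of 40 were higher and 6 lower, where 17.1% and 21.6% of all genes tested were. The share higher thus lay further above that of all genes at the lower limit than at 1.5-fold. The share of cells with 5 or more members differed by 7.65 percentage points at a limit of 3 members, 2.83 at 8, 12.2 with thinning to 1500 UMIs (3279 and 2426 cells), 2.81 without thinning and 10.2 in cells with 1000 or more genes. Median co-detection moved by less than 1.5 times under all 5 alternatives run. In cells with 5 or more members over cells with 0, thinning to 1500 UMIs gave, for the WT-labelled library and then the KO-labelled library, 0.46 and 0.14 for primary granule, -0.072 and 0.22 for secondary granule, -1.16 and -1.28 for monocyte and 1.70 and 0.95 for S phase genes, so the direction of the secondary granule list in the WT-labelled library depends on depth. Without the 5% of cells with most UMIs, a stand-in for doublets, it was 0.43 and 0.18 for primary and 0.18 and 0.51 for secondary granule genes. With members left out of the total, secondary granule genes gave 0.13 and 0.49, and with the list itself left out 0.51 in the KO-labelled library. The median log2 ratio of CV over members was 0.10 at own depth and -0.17 with thinning to 1500 UMIs. Leaving out cells with an erythroid UMI was chosen after seeing the data, as was leaving out the long members. No paired analysis was possible because each group has 1 library. *Bub1* had 204 and 121 UMIs, and at that depth its ratio could not be told from 0.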
